A study of Homo sapiens with 12 samples.

Results

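The genes described here are STAR, CYP11A1, FDX1, HSD3B2, CYP17A1, POR, CYP19A1, HSD17B1, SRD5A1 and HSD17B4, which encode proteins of steroid hormone synthesis. They were listed by name for their role, with earlier results of these data known and no threshold on a measured value, and all 10 were present among the 58735 genes of the deposited table. RNA was sequenced from KGN, a cell line from an adult-type granulosa cell tumor (GCT), and COV434, which the study describes as a line from a juvenile-type GCT. Each line had 3 untreated libraries and 3 libraries from cells given 77-39, an inhibitor of the mitochondrial deacetylase SIRT3, for 72 h, which made 12 libraries. Every label gives ovarian tissue and a WT genotype, and no allele or agent other than 77-39 distinguishes the groups. Per the labels, all cells grew in DMEM/F-12 free of phenol red, with 10% FBS that had been heat inactivated. The dose is written as 10 um/ml, a unit that can be read as µM or as µg/mL, and the same dose text stands on the untreated libraries, whose titles call them controls. No label says that the 3 libraries of a group came from separate cultures, so the p-values measure only the spread between these libraries.

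Steroid hormones are made from cholesterol. STAR brings cholesterol to the inner mitochondrial membrane, and CYP11A1 cuts off its side chain there to give pregnenolone, with electrons that FDXR passes on through FDX1. HSD3B enzymes and CYP17A1 then lead on to progesterone and the androgens. CYP19A1 (aromatase) turns androgens into estrogens, and HSD17B1 reduces estrone to estradiol. In the ovary, theca cells supply androgens that granulosa cells convert to estradiol, and genes of this pathway are widely used to describe granulosa cells and the tumors that arise from them.

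The 12 libraries held 15547851 to 18280415 reads on genes, recovered from FPKM (fragments on a gene scaled to its length in kb and to the size of the library) and gene length. Mitochondrially encoded genes made up 7.3% to 8.81% of the total with the label KGN and 7.71% to 9.63% in 5 libraries with the label COV434, while treated library 1 of that line stood apart at 13.51%. The 3 reads that a count of 0 allows correspond to 0.1524 to 0.2004 FPKM for a gene of 1 kb, a limit that covers counting error only. The labelled identity of the lines was checked against marker genes, several of which went against the labels. For this reason the libraries are named by their labels throughout. Of 10 granulosa markers, 3 had no read in the untreated libraries labelled KGN and 3 had none in those labelled COV434. Their summed level was 61.8 to 67.5 FPKM in the former, of which WT1 made up 56.4 to 61.4 FPKM, and 31.3 to 34.2 FPKM in the latter, where WT1 had no read. FOXL2, a transcription factor that defines granulosa cells, had 0 to 1 read in each library labelled KGN and 11.5 to 14 FPKM in those labelled COV434. FSHR and LHCGR, the gonadotropin receptors, had no read in any library, and NR5A1, the main activator of steroidogenic genes, had 1 read in all 12 together. The epithelial keratin KRT7 had no read in the libraries labelled KGN and 400 to 541 FPKM in those labelled COV434, and the 6 epithelial markers summed to 0.173 to 0.317 and 438 to 583 FPKM. In the latter the sum was mostly KRT7, with KRT19 at 33.8 to 43.3 FPKM. There EPCAM had 0 to 2 reads per library and CDH1 was at 0.00952 to 0.226 FPKM, so these markers were not high as a set. Of 6 theca and stroma markers, 5 were detected in the untreated libraries labelled KGN, with a sum of 14.8 to 15.7 FPKM, and 3 in those labelled COV434, with a sum of 73.1 to 196 FPKM, mostly LUM. SMARCA2, an ATPase of the SWI/SNF complex, was at 0.00296 to 0.0087 FPKM in the libraries labelled KGN and 4.51 to 6.48 FPKM in those labelled COV434. The other ATPase checked, SMARCA4, was present under both labels, at 2.25 to 2.6 and 6.51 to 12.6 FPKM. KGN is known to express FOXL2 and COV434 to lack SMARCA2, so both genes went against the labels, and whether the lines were exchanged or misidentified was not tested. Each value given for a line is therefore one for its label. The part of these marker differences in the results below was not tested, and in bulk RNA fewer expressing cells and less RNA per cell cannot be told apart.

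The members ranged from transcripts that were abundant in both lines, through HSD17B1, which was low in both, to transcripts at the edge of detection, and CYP11A1 was abundant in one line and without a read in the other. On the FPKM scale, which is per gene length, the untreated libraries labelled COV434 were led by CYP11A1 at 48.9 ± 2.91 FPKM (SD, n = 3), above 96.1% of detected genes. Then came FDX1, SRD5A1 and POR, whose libraries overlapped with their neighbours in this order, and HSD17B4 and HSD17B1 followed without overlap. In the untreated libraries labelled KGN the order was HSD17B4, POR, FDX1, SRD5A1 and HSD17B1, and of these neighbours only POR and FDX1 overlapped. HSD3B2, CYP19A1, STAR and CYP17A1 were below 1 FPKM in every library. With 77-39, CYP11A1 still came first and SRD5A1 came second in the libraries labelled COV434, without overlap with FDX1, which came next. In treated libraries labelled KGN, HSD17B4 and FDX1 overlapped, while the lowest FDX1 and the highest POR value were both 14.1 FPKM after rounding.

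**Figure D1:**
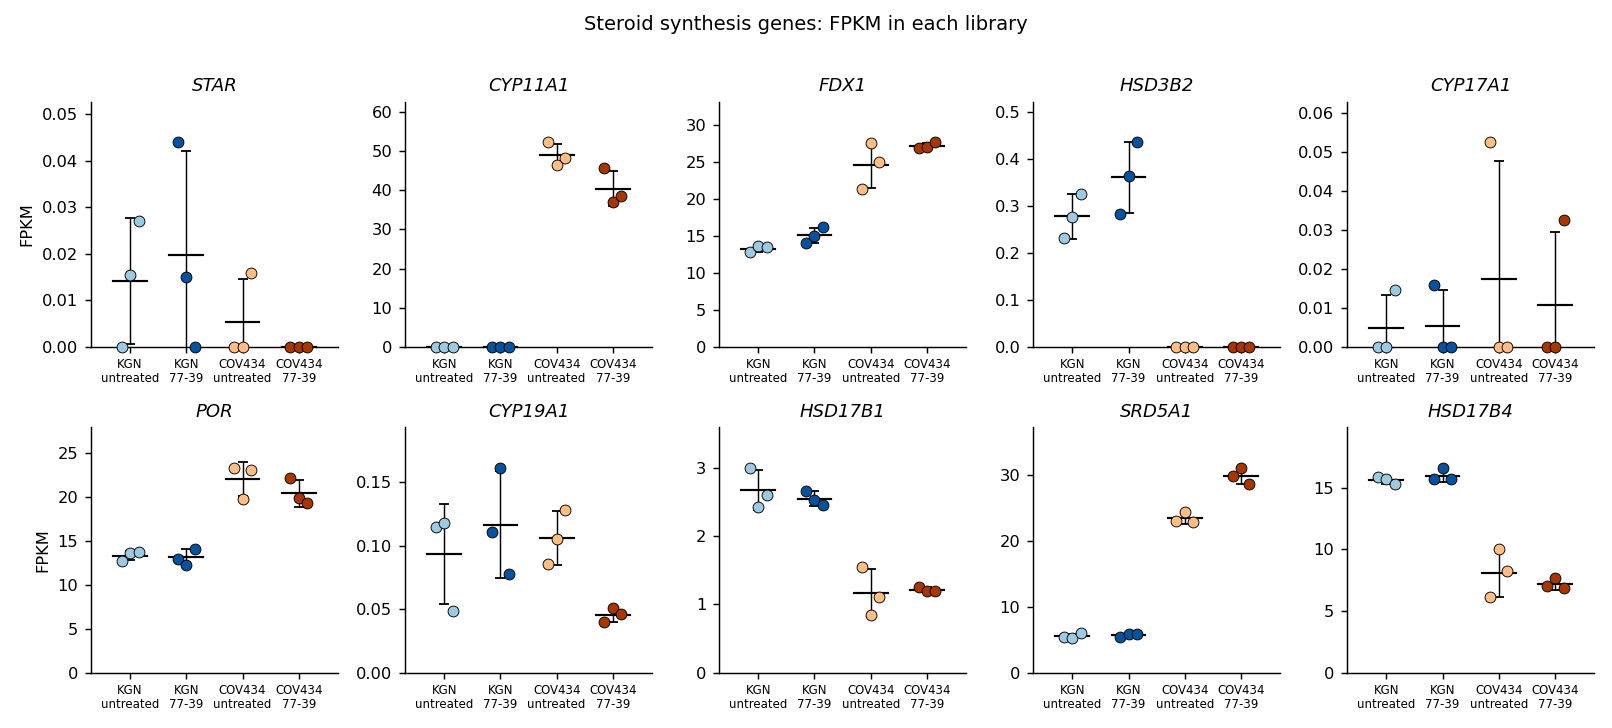
FPKM of the 10 members, 1 panel per gene on its own linear axis from 0, in untreated and 77-39 treated libraries labelled KGN and COV434. Points are single libraries, long bars are means and error bars are SD (n = 3), and CYP11A1 and HSD3B2 show points above 0 in 1 line only, in opposite lines.

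STAR (ENSG00000147465, chromosome 8, 38143649 to 38151265 of GRCh38, minus strand), the transporter at the first step, was barely detected. It had 0, 1 and 2 reads in the untreated libraries labelled KGN and 3, 1 and 0 reads in the treated ones. In those labelled COV434 it had 0, 0 and 1 read without 77-39 and no read with it. No library exceeded the 3 reads that a count of 0 allows, so a difference between groups was not detectable at this depth. ASH2L, a chromatin gene on the opposite strand that overlaps STAR, had 503 to 891 reads per library, and whether the counting used strand is not given in the sources used here.

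CYP11A1 (ENSG00000140459, chromosome 15, 74337759 to 74367740, minus strand), the side-chain cleavage enzyme, had no read in any of the 6 libraries labelled KGN. The untreated libraries labelled COV434 held 3018, 2762 and 2808 reads, or 52.2, 46.5 and 48.1 FPKM. The treated ones held 45.6, 37.1 and 38.5 FPKM, which gave a mean of 40.4 ± 4.57 FPKM (SD, n = 3). Against 3 reads in 1 library labelled KGN, the largest such limit of each comparison, the level was at least 973-fold higher in untreated and at least 786-fold higher in treated libraries labelled COV434. PPIAP46, a pseudogene on the opposite strand within the locus, had 217 to 487 reads in the libraries labelled COV434 and 0 to 1 in those labelled KGN, and the antisense gene AC090826.1 had 57 to 140 and 0. These overlapping genes held fewer reads than CYP11A1 in each library group, and how reads were divided among them is not known.

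Since CYP11A1 and HSD3B2 were each detected in 1 line and in opposite lines, the reference sequence before the start of each gene is shown, in lower case and read along the gene. The RefSeq windows (GRCh38.p14) hold 250 bases before and 50 after a start, and 7 of the 10 members had a window, CYP19A1 with 7 of them. The stretch for CYP11A1 is chr15:74367741-74367896, minus strand, which ends where the annotated gene begins. The stretch for HSD3B2 is chr1:119414681-119414930, plus strand.
CYP11A1: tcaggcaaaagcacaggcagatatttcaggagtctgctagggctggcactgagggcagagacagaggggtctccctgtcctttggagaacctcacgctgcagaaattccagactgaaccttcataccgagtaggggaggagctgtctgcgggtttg
HSD3B2: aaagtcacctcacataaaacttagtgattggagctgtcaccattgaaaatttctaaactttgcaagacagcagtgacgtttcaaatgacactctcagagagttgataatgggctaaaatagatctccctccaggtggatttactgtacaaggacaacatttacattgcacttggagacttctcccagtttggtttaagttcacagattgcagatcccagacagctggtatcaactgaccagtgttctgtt
Searched on both strands of the whole windows, neither gene held AAGGTCA (the half-site of NR5A1 and related receptors), TGACGTCA (the CREB motif) or TGACNNNGC (the core of the antioxidant response element). Among all 35116 windows, AAGGTCA was in 3.92%, TGACGTCA in 1.85% and TGACNNNGC in 13.3%. No overlap between matches of different motifs arose in the members, because the 13 windows of members held 1 match in all, in CYP19A1.

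FDX1 (ENSG00000137714, chromosome 11, 110429883 to 110464881, plus strand) encodes ferredoxin 1, the iron-sulfur protein that hands electrons to mitochondrial P450 enzymes such as CYP11A1. It was present in every library. The untreated libraries labelled KGN had 12.8, 13.6 and 13.5 FPKM, and the treated ones 14.1, 15 and 16.2 FPKM. In those labelled COV434, the values were 21.4, 27.6 and 25 FPKM without and 26.9, 27.1 and 27.7 FPKM with 77-39. All 6 libraries labelled COV434 lay above all 6 labelled KGN. Within the libraries labelled KGN the treated and untreated values did not overlap, while within those labelled COV434 they did.

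HSD3B2 (ENSG00000203859, chromosome 1, 119414931 to 119423035, plus strand), a 3β-hydroxysteroid dehydrogenase known from the adrenal and the gonads, showed the opposite pattern to CYP11A1 at a far lower level. The untreated libraries labelled KGN had 10, 11 and 15 reads (0.278 ± 0.0477 FPKM, SD, n = 3), and the treated ones had 12, 15 and 17 reads (0.361 ± 0.0761 FPKM, SD, n = 3). No read fell on it in the 6 libraries labelled COV434. The level was thus at least 3.58-fold higher in untreated and at least 4.21-fold higher in treated libraries labelled KGN. Its close paralog HSD3B1, the placental form, had no read in any library. Reads that match both copies are an uncertainty here, since their handling is not given in the sources used here.

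CYP17A1 (ENSG00000148795, chromosome 10, 102830531 to 102837533, minus strand), the 17α-hydroxylase and 17,20-lyase of androgen synthesis, had 1 read in the 3 untreated and 1 read in the 3 treated libraries labelled KGN. It had 3, 0 and 0 reads in untreated and 0, 0 and 2 reads in treated libraries labelled COV434. Its read counts therefore stayed at or below 3 in every library. WBP1L, on the opposite strand, overlaps this gene and had 386 to 829 reads.

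POR (ENSG00000127948, chromosome 7, 75899200 to 75986855, plus strand) is the reductase that supplies electrons to CYP17A1, CYP19A1 and the other P450 enzymes of the endoplasmic reticulum. It was at 12.7, 13.6 and 13.7 FPKM in untreated and 13, 12.3 and 14.1 FPKM in treated libraries labelled KGN. Those labelled COV434 had 23.3, 19.8 and 23.1 FPKM without and 22.2, 19.9 and 19.3 FPKM with 77-39. Treated and untreated values overlapped in both lines, and all libraries labelled COV434 lay above those labelled KGN. TMEM120A, on the opposite strand, overlaps POR and was itself higher in the libraries labelled COV434, with 987 to 1143 reads against 418 to 548.

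CYP19A1 (ENSG00000137869, chromosome 15, 51208057 to 51338610, minus strand) encodes aromatase, the enzyme that turns androgens into estrogens and a hallmark of granulosa cells. It had 18, 17 and 8 reads in untreated and 17, 24 and 11 reads in treated libraries labelled KGN. In those labelled COV434 it had 12, 15 and 18 reads without and 5, 7 and 7 reads with 77-39, or 0.106 ± 0.0209 and 0.0455 ± 0.00553 FPKM (SD, n = 3). The treated libraries labelled COV434 thus lay below the untreated ones, whereas the groups labelled KGN overlapped. By voom of limma over genes with at least 10 reads, a step chosen after the data were seen, the log2 difference in COV434 was -1.13 ± 0.60 (SE), with a 95% interval from -2.40 to 0.14 and an adjusted p of 0.729, so it did not pass the test. In the libraries labelled KGN, but not in those labelled COV434, the overlapping noncoding genes MIR4713HG (10 to 35 reads) and AC020891.2 (7 to 28 reads) had reads in a range that overlaps the 8 to 24 reads of CYP19A1.

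Of its 7 RefSeq windows, the most downstream one held the AAGGTCA half-site, at positions -131 to -125 from that start. The match is shown in capitals within the 30 bases of chr15:51243142-51243171 (GRCh38.p14, minus strand), which lie in an intron of the longest CYP19A1 transcripts.
CYP19A1: gagactctaccAAGGTCAgaaatgctgcaa
NR5A1 and NR5A2 are nuclear receptors known to bind this half-site. NR5A2 was at 43.4 to 48.1 FPKM in the libraries labelled KGN and at 1 to 5 reads in those labelled COV434. CYP19A1 was below 0.2 FPKM in both, and the match is a description of these letters only.

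**Figure D2:**
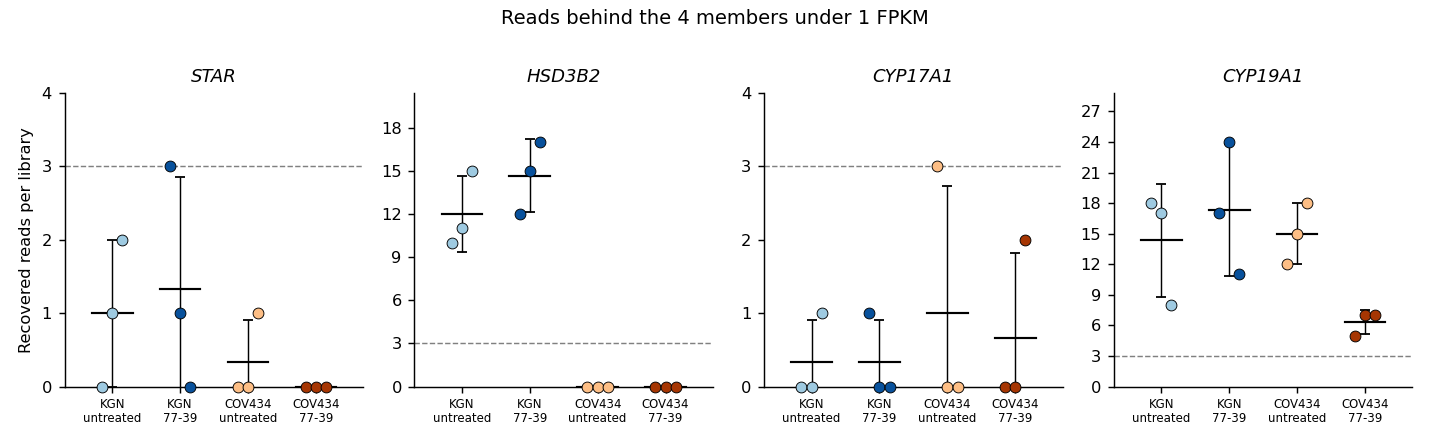
Reads recovered from FPKM and gene length in each library for the 4 members below 1 FPKM, on linear axes from 0, with long bars for means and error bars for SD (n = 3). The dashed line marks the 3 reads that a count of 0 allows, which no library exceeds for STAR or CYP17A1 and which CYP19A1 exceeds in all 12 libraries.

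HSD17B1 (ENSG00000108786, chromosome 17, 42549214 to 42555213, plus strand), the estradiol-forming 17β-hydroxysteroid dehydrogenase, was low but measurable in both lines. The libraries labelled KGN had 2.99, 2.42 and 2.6 FPKM without and 2.66, 2.53 and 2.45 FPKM with 77-39. Those labelled COV434 had 1.54, 0.842 and 1.11 FPKM without and 1.25, 1.19 and 1.2 FPKM with it. All libraries labelled COV434 lay below those labelled KGN, and treated and untreated values overlapped in both lines. The neighbouring pseudogene HSD17B1P1 had 44 to 105 reads per library, so part of the reads of HSD17B1 is uncertain.

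SRD5A1 (ENSG00000145545, chromosome 5, 6633343 to 6674386, plus strand) encodes the 5α-reductase that turns testosterone into dihydrotestosterone and progesterone into its 5α-reduced form. The untreated libraries labelled KGN had 5.44, 5.21 and 5.94 FPKM and the treated ones 5.39, 5.87 and 5.78 FPKM. In those labelled COV434 the values were 23, 24.4 and 22.9 FPKM without and 29.8, 31 and 28.6 FPKM with 77-39. Here the treated libraries lay above the untreated ones, and both lay above every library labelled KGN.

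HSD17B4 (ENSG00000133835, chromosome 5, 119452443 to 119637199, plus strand) encodes the peroxisomal D-bifunctional protein, which oxidizes estradiol to estrone but mainly serves the beta-oxidation of very-long-chain and branched fatty acids. It was at 15.9, 15.7 and 15.3 FPKM in untreated and 15.7, 16.6 and 15.7 FPKM in treated libraries labelled KGN. Those labelled COV434 had 6.1, 10 and 8.26 FPKM without and 7, 7.69 and 6.85 FPKM with 77-39. It was thus the most abundant member in the untreated libraries labelled KGN and the fifth in those labelled COV434, and its treated and untreated values overlapped in both lines.

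The difference between the untreated lines was tested by limma on log2(FPKM + 1), two-sided, for genes whose mean in the 6 untreated libraries reached 1 FPKM, with Benjamini-Hochberg adjustment over all genes tested. This filter kept 6 of the 10 members and left out STAR, HSD3B2, CYP17A1 and CYP19A1. CYP11A1 passed it through the libraries labelled COV434 alone, which fixed in advance that it would be called, so its p-value carries no weight. All 6 had an adjusted p-value under 0.05, where 69.0% of the 13098 genes tested did, so a call alone says little in this comparison and the size of the difference matters more. Over all genes tested, the median size of the log2 difference was 0.68 and 10% of genes exceeded 2.47.

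SRD5A1 was 3.75-fold higher in the libraries labelled COV434 on the scale of FPKM + 1, a log2 difference of 1.90 ± 0.08 (SE, adjusted p = 1.93e-06, limma). FDX1 was higher by 0.84 ± 0.11 (adjusted p = 0.000507, limma) and POR by 0.68 ± 0.10 (adjusted p = 0.000751, limma), sizes near the median of all genes. HSD17B4 had a log2 difference of -0.89 ± 0.16 (adjusted p = 0.00245, limma), and that of HSD17B1 was -0.77 ± 0.14 (adjusted p = 0.00226, limma). HSD17B1 is low enough for the added 1 FPKM to matter, and its difference was -1.17 with 0.1 FPKM added and -1.44 by voom on recovered reads, where HSD17B4 had -0.96 and -1.18, so the order of these enzymes by size turned. For CYP11A1 the log2 difference was 5.64 ± 0.08 (adjusted p = 2.58e-08, limma), a value that depends on the added 1 FPKM because 1 side was at 0. Among the members, both electron donors and the 5α-reductase were therefore higher in the libraries labelled COV434, and HSD17B1 and HSD17B4 were higher in those labelled KGN. Outside the members the 17β-hydroxysteroid dehydrogenases went both ways. HSD17B6 and HSD17B10 were among those higher in COV434, and HSD17B8, HSD17B12 and HSD17B14 among those lower. Of these, HSD17B6 and HSD17B14 passed the filter through 1 line alone, so their calls were fixed in advance. The lines also differed in the marker genes given above, from which these differences cannot be told apart. FPKM was also scaled to totals above the reads on genes in KGN and below them in COV434, as given in the last section.

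**Figure D3:**
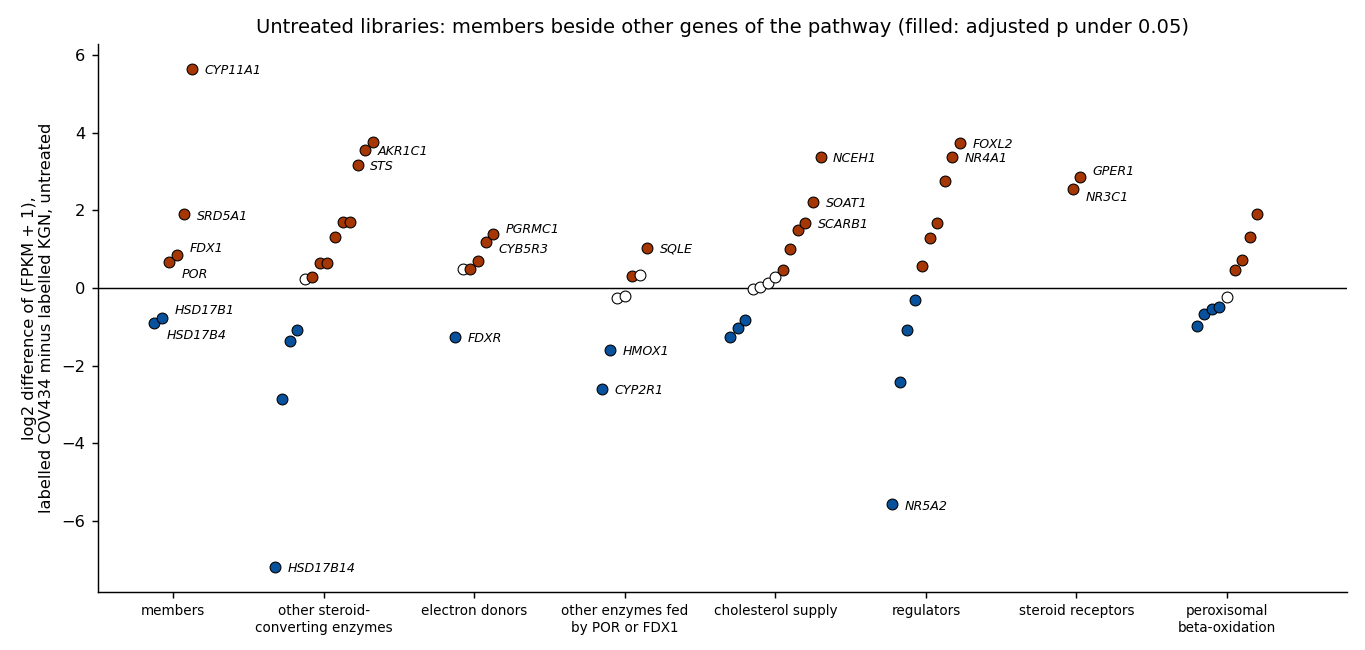
Log2 difference of FPKM + 1 between untreated libraries labelled COV434 and KGN (n = 3 each) for the genes tested in each list, where each point is 1 gene, filled red if higher and filled blue if lower in COV434 at an adjusted p-value under 0.05, and open otherwise. Among members CYP11A1 stands at 5.64 and SRD5A1 at 1.90, with the other 4 between -0.89 and 0.84.

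Whether SIRT3 inhibition was followed by a change of these genes was examined within each line by the same test. In the libraries labelled KGN, 5 of the 10 members (FDX1, POR, HSD17B1, SRD5A1 and HSD17B4) were kept and 0 were called at an adjusted p-value under 0.05, while 34.0% of the 12671 genes tested were. At an unadjusted p-value under 0.05 there was 1 member, FDX1, against 45.3% of all genes tested, and FDX1 was also the 1 member by voom. The median log2 difference of these members was 0.03, against 0.01 over all genes tested.

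FDX1 was 1.12-fold higher with 77-39 in the libraries labelled KGN, a log2 difference of 0.17 ± 0.06 (SE), with a 95% interval from 0.03 to 0.30 and an adjusted p of 0.0626 by limma. The adjusted p by limma was 0.0365 to 0.319 over its alternatives and fell under 0.05 with quantile normalization, with voom on the same genes, with protein-coding genes only and without the treated library 1. The other 4 had log2 differences between -0.05 and 0.03. Their 95% intervals ran from -0.17 to 0.12 for POR, from -0.23 to 0.13 for HSD17B1, from -0.11 to 0.18 for SRD5A1 and from -0.07 to 0.13 for HSD17B4.

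In the libraries labelled COV434, 6 members were kept and 0 were called at an adjusted p-value under 0.05, where 0.0415% of the 12060 genes tested were, or 5 genes. With the library number as a replicate block, which this line's libraries call for because same-numbered libraries deviate together, 87 genes (0.721%) were called and again no member. At an unadjusted p-value under 0.05 there was 1 member, SRD5A1, against 8.00% of all genes tested. By voom on the same genes it was again SRD5A1 alone. Without treated library 1, which stood apart in its mitochondrial share, 0 members were called, and the log2 difference was 0.33 for SRD5A1 and -0.36 for CYP11A1.

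SRD5A1 was 1.26-fold higher with 77-39 in the libraries labelled COV434, a log2 difference of 0.33 ± 0.13 (SE), with a 95% interval from 0.03 to 0.64 and an adjusted p of 0.556 by limma. Over its alternatives the adjusted p by limma was 0.0450 to 1.00, with the lowest value from a single fit of all 12 libraries. CYP11A1 had a log2 difference of -0.28 ± 0.15 (SE), with a 95% interval from -0.62 to 0.07 and an adjusted p of 0.752 by limma, although its treated and untreated libraries did not overlap. With the replicate block its adjusted p was 0.286 by limma. The SE and intervals given here for COV434 are without that block. FDX1, POR, HSD17B1 and HSD17B4 had log2 differences from -0.14 to 0.14, and their intervals all included 0. The intervals were wider than in the libraries labelled KGN, with that of POR from -0.43 to 0.23 and that of HSD17B4 from -0.55 to 0.28.

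**Figure D4:**
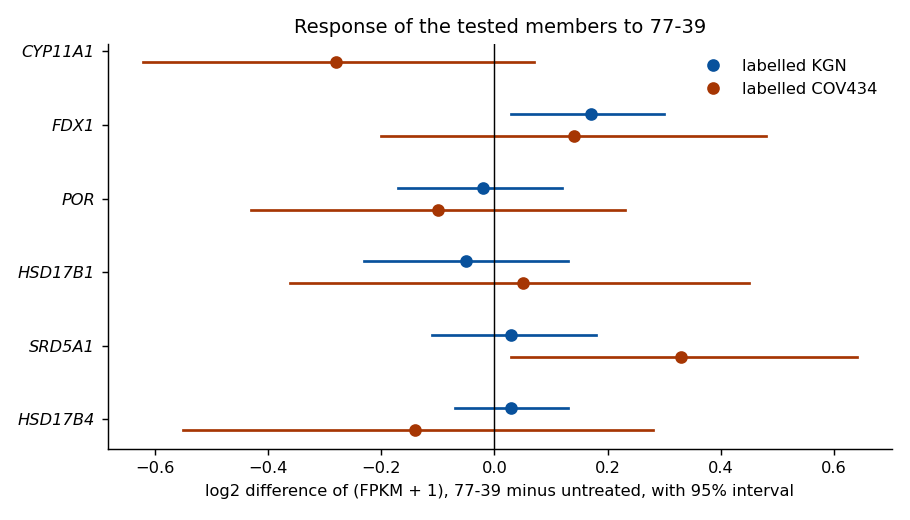
Log2 difference of FPKM + 1 between 77-39 treated and untreated libraries (n = 3 each) for the members kept by the filter, with 95% intervals from limma without a replicate block, in blue for libraries labelled KGN and in brown for those labelled COV434. The intervals that leave out 0 are those of FDX1 in KGN and SRD5A1 in COV434, and neither gene passed after adjustment.

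The difference of the response between the lines was tested as the interaction of line and treatment over all 12 libraries. None of the 6 members kept was called, where 3.60% of the 13127 genes tested were. At an unadjusted p-value under 0.05 there were 2, CYP11A1 and SRD5A1, against 18.0% of all genes tested, and by voom on the same genes 1, SRD5A1. The difference, KGN minus COV434, was -0.30 ± 0.11 for SRD5A1 (SE, adjusted p = 0.169, limma). For CYP11A1 it was 0.28 ± 0.12 (SE, adjusted p = 0.272, limma), where its libraries labelled KGN held no read, so that this value restates the difference within COV434.

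The same tests were read for other genes of the pathway, in lists written by function. Their counts are read against the background of all genes, of which 36.4% were higher and 32.6% lower in COV434 between the untreated lines, and 17.6% rose and 16.4% fell with 77-39 in KGN. Beside the changes with 77-39 in KGN, the granulosa marker WT1, 1 of 2 tested, fell by 0.34 on the log2 scale (SE 0.05, adjusted p = 0.00309, limma), and the stromal marker LUM, also 1 of 2 tested, rose by 0.43 ± 0.06 (SE, adjusted p = 0.00338, limma). Their part in the changes of the lists was not tested. Of 29 other steroid-converting enzymes, 14 were tested between the untreated lines, and 9 were higher and 4 lower in the libraries labelled COV434, with a median log2 difference of 0.65 against 0.02 over all genes. Of the 14, 5 (AKR1C1, AKR1C2, AKR1C3, HSD17B14 and HSD17B6) reached the filter in 1 line alone, which fixed in advance that they would differ. The median of 0.65 includes these 5, so it cannot be read against the 0.02. Among the other 9, 5 were higher and 3 lower, with log2 differences from -2.85 to 3.17. The 3 with the smallest adjusted p were HSD17B14, AKR1C1 and STS. HSD17B14, an enzyme that oxidizes estradiol, was at 163 to 189 FPKM in untreated libraries labelled KGN and at 0 to 0.321 FPKM in those labelled COV434, so it exceeded HSD17B1 and HSD17B4 in the former and lay below both in the latter. AKR1C1, a ketosteroid reductase whose reads may be shared with close paralogs, and STS, the steroid sulfatase, were higher in COV434 by 3.56 ± 0.11 and 3.17 ± 0.10 on the log2 scale (SE, adjusted p = 3.49e-07 and 5.10e-07, limma). HSD17B10, a mitochondrial enzyme of the same family, was at 47.8 to 50.8 and 142 to 177 FPKM, also above HSD17B1 and HSD17B4. With 77-39, 2 of the 10 enzymes tested in the libraries labelled KGN were upregulated and 1 downregulated, with a median of 0.11, a share near the background of 34.0% called. HSD17B12 and STS rose (0.57 ± 0.05 and 0.50 ± 0.09, adjusted p = 0.000746 and 0.00736, limma), and HSD17B8 fell from 22.1 ± 0.517 to 12 ± 1.01 FPKM (SD, n = 3, adjusted p = 0.000356, limma). In the libraries labelled COV434, 0 of 14 were called by limma or by its voom, 2 (HSD17B8 and STS) had an unadjusted p-value under 0.05, and the median was 0.04.

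Around FDX1 and POR, 6 of 7 genes in the list of other electron donors were tested between the untreated lines, and 4 were higher and 1 lower in COV434, with a median of 0.59. The list also holds H6PD and PGRMC1, which are not known as direct donors to P450 enzymes. The lower one was FDXR, the reductase that loads FDX1, at 20.5 to 22.6 FPKM in the libraries labelled KGN and 7.8 to 9.14 FPKM in those labelled COV434 (log2 difference -1.25 ± 0.09, adjusted p = 2.57e-05, limma), so FDXR and FDX1 differed in opposite directions. CYB5R3 and PGRMC1 were higher in COV434 (1.18 ± 0.09 and 1.38 ± 0.12, adjusted p = 3.28e-05 and 6.28e-05, limma), and CYB5A, the cytochrome b5 that favours the lyase step of CYP17A1, was at 1.43 to 1.92 and 2 to 3.88 FPKM. With 77-39, H6PD and PGRMC1 were the 2 that rose in the libraries labelled KGN (median 0.05). The other 4 tested there, FDXR and CYB5A among them, were not called. In those labelled COV434, 0 of 6 were called by limma or voom, with 1, FDXR, at an unadjusted p-value under 0.05 (median -0.07). Of 13 other enzymes that take electrons from POR or FDX1, 5 of 8 tested rose with 77-39 in the libraries labelled KGN, where 17.6% of all genes did, with a median of 0.22. HMOX1, the heme oxygenase that uses electrons from POR, rose from 16.1 ± 0.782 to 104 ± 2.68 FPKM (SD, n = 3, adjusted p = 3.48e-06, limma), while POR was at 13.4 ± 0.554 and 13.1 ± 0.886 FPKM. CYP4V2 and SQLE had the next smallest adjusted p (0.51 ± 0.08 and 0.25 ± 0.06, adjusted p = 0.00323 and 0.0185, limma). In the libraries labelled COV434, 0 of 7 were called by limma or voom and 1, HMOX1, had an unadjusted p-value under 0.05 (median 0.11). Between the untreated lines 2 were higher and 2 lower in COV434 (median -0.21), with SQLE higher and CYP2R1 and HMOX1 lower. CYP2R1 reached the filter in 1 line alone and so had to differ, and the median includes it.

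Upstream of STAR and CYP11A1, 13 of 16 genes of cholesterol supply were tested between the untreated lines, and 6 were higher and 3 lower in COV434, with a median of 0.29. LIPE and NCEH1 reached the filter in 1 line alone and so had to differ, and the median includes them. The higher genes were led by the ester hydrolase NCEH1 (3.37 ± 0.12, adjusted p = 7.07e-07, limma), followed by SOAT1 and SCARB1. With 77-39, 5 of 12 tested rose and 1 fell in the libraries labelled KGN (median 0.17), where 17.6% and 16.4% of all genes did. NPC2, SOAT1 and NPC1 led the rise. Under the filter and not tested there, ABCA1 had 24, 24 and 33 reads without and 5, 6 and 1 reads with 77-39, without overlap. The other genes of the list under the filter in KGN overlapped. In the libraries labelled COV434, 0 of 12 passed by limma or voom, adjusted or not (median 0.02). All 16 had reads in every group, but some were as near the floor as STAR, which had at most 3 reads in any library. STARD6, for one, had 0, 0 and 3 reads in treated libraries labelled COV434.

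Among 16 regulators of steroidogenic genes, 10 were tested between the untreated lines, and 6 were higher and 4 lower in COV434, with a median of 0.92, where 69.0% of all genes were called. Of these, NR5A2, FOXL2, GATA6 and NR4A1 passed the filter through 1 line alone and so had to differ. The median of 0.92 includes them, so it says little about a shared direction. The other 6 were 3 higher and 3 lower, with log2 differences from -2.41 to 1.68. NR5A2 was lower (-5.57 ± 0.07, adjusted p = 2.31e-08, limma), so the libraries with CYP11A1 were those nearly without NR5A2 and, like the others, without NR5A1. FOXL2 and NR4A1, an orphan receptor known to act on steroidogenic genes, were higher (3.74 ± 0.08 and 3.38 ± 0.10, adjusted p = 9.08e-08 and 3.50e-07, limma). With 77-39, NR4A1 fell from 13.5 ± 1.22 to 4.58 ± 0.809 FPKM in the libraries labelled COV434 (SD, n = 3, adjusted p = 0.0468, limma), the only call among 9 (median -0.13). Over its alternatives the adjusted p by limma was 0.000167 to 0.219, and NR4A1 was called in 8 of 16. At an unadjusted p-value under 0.05 there were 3, NR4A1, NR4A2 and CITED2, both by limma and by voom. NR4A2, a close relative of NR4A1 that is named after its values were seen, was at 19.3, 16.1 and 18.2 FPKM without and 7.54, 8.77 and 9.61 FPKM with 77-39, and the groups did not overlap. Its log2 difference was -0.97 ± 0.15 (SE, adjusted p = 0.0769, limma), and with the replicate block -0.97 ± 0.13 (SE, adjusted p = 0.0459, limma), under which NR4A1 and NR4A2 were the 2 calls. CITED2 was the only call among 7 in the libraries labelled KGN, where it fell (median -0.06).

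Downstream of the pathway, 2 of 7 steroid receptors were tested between the untreated lines, the glucocorticoid receptor NR3C1 and the membrane estrogen receptor GPER1, and both were higher in COV434 (median 2.71). Under the filter, ESR2 and PGR went the other way. ESR2 had 1.42 to 1.92 FPKM in untreated libraries labelled KGN and 0.0129 to 0.0768 FPKM in those labelled COV434. PGR had 0.274 to 0.312 FPKM in the former and no read in the latter. With 77-39, neither NR3C1 nor GPER1 was called in COV434 by limma, GPER1 having an unadjusted p-value under 0.05 (median -0.36). In KGN, GPER1 lay under the filter and was not tested, with 0.856, 1.36 and 1.18 FPKM in untreated and 0.683, 0.378 and 0.722 FPKM in treated libraries, which did not overlap. There NR3C1 and ESR2 were tested and 0 of 2 were called by limma or voom, with 0 at an unadjusted p-value under 0.05 by limma and 1 by voom (median -0.07). The peroxisomal beta-oxidation genes, partners of HSD17B4 in its main role, were 4 higher and 4 lower in COV434 among the 9 of 12 tested (median -0.24), so they did not share the direction of HSD17B4 as a group. DECR2 was among the higher ones (1.31 ± 0.16, adjusted p = 0.000308, limma). With 77-39, 2 (SCP2 and CROT) of 9 rose and 1 (DECR2) fell in the libraries labelled KGN (median -0.08), and 0 of 9 were called in those labelled COV434 by limma or voom, with 1 at an unadjusted p-value under 0.05 (median -0.04).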

How the data were processed

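RNA of untreated and 77-39 treated KGN and COV434 cells was sequenced in 12 libraries, which were assigned to 4 groups of 3 by their labels. The authors deposited FPKM per gene with gene length and position. Per the submitters' processing notes, reads were aligned with HISAT2 2.0.5. The counter and its strand setting are not given in the sources used here. The labels name mouse builds and the extraction of retinas, whereas the coordinates of all 58735 genes match release 29 of GENCODE on human GRCh38. FPKM multiplied by gene length gave whole reads (tolerance 0.05) for 100% of genes above 0.

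Comparisons were made with limma 3.58.1 in R 4.3.3 (lmFit, eBayes with a trend, two-sided) on log2(FPKM + 1) for genes whose mean reached 1 FPKM, and p-values were adjusted by Benjamini-Hochberg over all genes tested. Fold changes on this scale understate the change of low genes. Each line was fitted alone, the untreated lines against each other, and the interaction over all 12 libraries. The alternatives were another pseudocount, lower or no filter, other scalings, voom on recovered reads, protein-coding genes only, a block for the library number, a joint fit of all libraries, and each library left out. Voom over genes with at least 10 reads was chosen after the data were seen. Same-numbered libraries labelled COV434 deviated together from their group means (r across genes of 0.400, 0.474 and 0.166), those labelled KGN did not (-0.0164, -0.0180 and -0.0190). The scripts were tested on simulated data.

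The members and the lists were chosen with earlier results of these data known. The lists cover other steroid-converting enzymes, electron donors, other enzymes fed by POR or FDX1, cholesterol supply, regulators, steroid receptors, peroxisomal beta-oxidation, and markers of granulosa, theca and stroma, and epithelial cells and of SWI/SNF. CYP1B1 and CYP7B1 stand in 2 of them, 4 granulosa markers (FOXL2, FSHR, GATA4, NR5A1) are also regulators, and LHCGR is both a regulator and a theca marker. All members are named, as are HSD3B1, HSD17B10, HSD17B12, FDXR, CYB5A, NR5A1, NR5A2, FOXL2, FSHR, LHCGR and HMOX1, and up to 3 genes per list and comparison whose groups did not overlap, taken by the smallest adjusted p-value if under 0.05. TMEM120A, ASH2L, WBP1L and other overlapping genes were named for their position, and KRT7, KRT19, EPCAM, CDH1, WT1, LUM, SMARCA2 and SMARCA4 as markers. Further genes that reached the filter in 1 line alone, and NR4A2, ESR2, PGR, ABCA1 and STARD6, were named for their level. All of these were named after their values were seen. Some genes that these rules name are not reported here. Promoter windows came from RefSeq. Figures used matplotlib 3.10.9.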

Additional observations from a re-analysis of the deposited data

Results flagged for a closer look

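For 7 named genes that are not among the members, the response to 77-39 differed between the lines by the interaction of line and treatment (limma, adjusted p-value under 0.05, log2 difference given as KGN minus COV434). HSD17B8 differed by -1.54, being at 22.1 ± 0.517 FPKM (SD, n = 3) in untreated and 12 ± 1.01 FPKM in treated libraries labelled KGN, and at 10.1 ± 1.98 and 17 ± 0.695 FPKM in those labelled COV434. STS differed by 1.04, with 1.17 ± 0.186 and 2.07 ± 0.106 FPKM in the former and 18.5 ± 1.48 and 12.7 ± 3.18 FPKM in the latter. FDXR, the partner of FDX1, differed by -0.47, with 21.7 ± 1.06 and 22.1 ± 0.387 FPKM in KGN and 8.54 ± 0.682 and 12.5 ± 0.367 FPKM in COV434, and it passed in 6 of 21 alternatives, the replicate block not among them, with an adjusted p of 0.0219 at the lowest. HMOX1 differed by 2.01, with 16.1 ± 0.782 and 104 ± 2.68 FPKM in KGN and 4.68 ± 0.0872 and 7.86 ± 2.32 FPKM in COV434. NPC1 differed by 0.77, with 3.95 ± 0.337 and 5.59 ± 0.243 FPKM in KGN and 13 ± 2 and 9.96 ± 0.593 FPKM in COV434. NR4A1 differed by 1.39, with 0.389 ± 0.109 and 0.402 ± 0.0251 FPKM in KGN and 13.5 ± 1.22 and 4.58 ± 0.809 FPKM in COV434. It was low in KGN and passed the filter through COV434 alone, so this value largely restates the difference of -1.38 within COV434. NR4A2 differed by 0.88, with 99.2 ± 2.79 and 93 ± 3.57 FPKM in KGN and 17.9 ± 1.66 and 8.64 ± 1.04 FPKM in COV434. STS passed in 12 and NPC1 in 13 of 21 alternatives, and HSD17B8, HMOX1, NR4A1 and NR4A2 in all 21.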

How the results depend on the processing

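The number of members called with 77-39 in the libraries labelled KGN was 0 and became 1 (FDX1) with quantile normalization, with voom on recovered reads and with protein-coding genes only, and it ranged from 0 to 1 when each library was left out, with the 1 arising without the treated library 1. In the libraries labelled COV434 it was 0 and became 1 (SRD5A1) in 1 fit of all 12 libraries. No member was called for the difference of the response under any alternative run. Between the untreated lines, 6 were called, with the call of CYP11A1 fixed in advance. HSD3B2 made 7 where a lower filter let it in through the libraries labelled KGN, the line where it had reads. Its call was thus fixed in advance too (57.7%, 39.7% and 65.9% of all genes were called at a mean of 0.1 FPKM, with no filter and with at least 10 reads). With the replicate block, 0 members were called in KGN, 0 in COV434 and 0 for the difference of the response, so the block changed no call of a member. Among members, signs turned only for differences that had not been called, and only when 1 library was left out. Over these fits the log2 difference in KGN ranged from -0.10 to 0.02 for HSD17B1 (above 0 without the untreated library 1), from -0.07 to 0.02 for POR (above 0 without the treated library 2) and from 0.00 to 0.08 for SRD5A1 (lowest, and just below 0, without the untreated library 2). In COV434 it ranged from -0.06 to 0.17 for HSD17B1 and from -0.30 to 0.01 for HSD17B4, and for the difference of the response from -0.21 to 0.02 for HSD17B1, each turning without the untreated library 2 of COV434. That of FDX1 ranged from -0.06 to 0.12, with 0.00 without the untreated library 1 of KGN and -0.02 without its treated library 3, and the lowest value without the untreated library 2 of COV434. Voom on recovered reads moved the median difference of all genes between the untreated lines from 0.02 to -0.18, and all 6 members tested kept their sign there, although the difference of HSD17B1 moved from -0.77 to -1.44, and quantile normalization took POR from 0.68 to 0.36 and FDX1 from 0.84 to 0.50. FPKM was scaled to totals of 17084939 to 19681248 in untreated libraries labelled KGN, above their 15920486 to 18135160 reads on genes. In untreated libraries labelled COV434 the totals, 16572406 to 16999153, were below the 17701495 to 17875989 reads on genes. Voom scaled to the reads on genes, and the part of this in the shift was not tested. Over all genes, the calls in COV434 were 5 and ranged from 1 (no filter) to 488 (1 fit of all libraries), and those in KGN were 4307 and fell to 1237 in that fit. They were 1 to 2 in COV434 without any 1 of its libraries other than the treated library 1 (7 without that one), and in KGN lowest, at 2751, without the treated library 2. The cause of these changes was not tested. Depth limits STAR and CYP17A1, for which 3 reads or fewer per library allow no comparison, and each group rests on 3 libraries.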
